A study of Saccharomyces cerevisiae with 5 samples.

Results

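The GID complex of budding yeast is a multi-subunit ubiquitin ligase, and its genes were followed here on 5 two-channel arrays. Members were the 8 genes VID30, VID24, VID28, GID7, GID8, FYV10, RMD5 and UBC8, found by platform or RefSeq symbol or synonym among 5539 measured genes. All 8 were present on both platforms. The complex was selected on the low centred log2 ratios of VID30 on these arrays, and the other members are its partner subunits and conjugating enzyme. Every ratio of the members is therefore given as a description and none is tested. Each array compared RNA recovered with zz-tagged Yra1 in channel 1 with RNA recovered with zz-tagged Mex67 in channel 2, from Saccharomyces cerevisiae. The zz tag consists of immunoglobulin-binding domains of protein A, Mex67 is the main mRNA export receptor, and Yra1 is an RNA-binding adaptor of that receptor. The labels give no strain, growth medium, carbon source, dye or untagged control, and they do not say that the arrays came from separate cultures.

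The GID ligase is best known for degrading the enzymes of gluconeogenesis when yeast grown on a non-fermentable carbon source receives glucose. VID30 and GID8 encode scaffold subunits, RMD5 and FYV10 the RING-type subunits of the catalytic module, and UBC8 the ubiquitin-conjugating enzyme that works with them. VID24 encodes the receptor that recognises substrates with an N-terminal proline, VID28 the subunit that holds this receptor on the scaffold, and GID7 a WD40 subunit that joins complexes into a larger assembly. The arrays measured transcripts of these genes, not the proteins.

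The arrays form 1 group and are called replicates 1 to 5. Replicates 2 to 5 shared a platform with 12800 spots, and replicate 1 was on another with 7680 spots. The deposited log10 ratios are given here as log2 values after subtraction of the array median, with the mean taken over a gene's spots, so 0 is the median of an array. The numerator channel is not given in the labels. "Lower" and "below" therefore describe the ratio as deposited, with no statement on which precipitate was richer in a transcript, and a ratio cannot tell more RNA in one precipitate from less in the other. Across genes, Pearson r between arrays ran from -0.03 to 0.13 among replicates 2 to 5 and from -0.06 to 0.04 between replicate 1 and each of them. Each value is taken across the genes of a pair of arrays, and genes are not independent replicates. The arrays thus reproduced each other little, which, with their small number, limits every mean over arrays given below. A limma fit of the 4 arrays of the shared platform called 0 of 5539 genes (0.0%) at an adjusted p under 0.05, with 300 genes at an unadjusted p under 0.05. The ordinary test without moderation also called 0 genes, with 289 at an unadjusted p under 0.05.

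Within the complex, VID30 lay more than 1 log2 unit below every other member on 3 of the 5 arrays. VID28 lay below VID30 on replicates 1 and 5. The mean of VID30 over replicates 2 to 5 was -2.58 ± 1.69 log2 units (SD, n = 4), or 5.99-fold below the array median. The means of the other 7 ran from -0.33 for UBC8 to 0.79 for GID7, at percentiles 27.7 and 96.2 of all genes. The median of the 8 means was 0.03, beside -0.02 over all genes. Of the 8 members 4 had a mean below 0, beside 51.6% of all genes.

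Of the scaffold genes, VID30 had log2 ratios of -1.21, -4.67, -1.13, -3.25 and -1.28 on replicates 1 to 5. Replicates 2 and 4 were far lower than the other arrays, which lay close together, and no array was above 0. Among all genes of an array, VID30 was at percentile 9.50, 0.298, 6.45, 0.460 and 10.4 on replicates 1 to 5. Its mean was the second lowest of the 5539 genes with replicate 2 as deposited. The mean was -1.89 without replicate 2 and -3.07 without replicate 3. The labels give 1 orientation for all arrays, but the median of replicate 2 as deposited was above 0 and those of replicates 3 to 5 below it, and if replicate 2 ran the opposite way the mean of VID30 would be -0.25. VID30 would then be at percentile 26.7 of all genes, with 3 members below it. Replicates 3 and 5 share a code in their titles, and with these arrays averaged into 1 the mean of VID30 was -3.04.

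GID8, the other scaffold gene, had log2 ratios of 1.02, 0.35, 0.02, -1.34 and 0.05 on replicates 1 to 5. Replicate 4 was the low array and replicate 1, on the other platform, the high one. Its mean over replicates 2 to 5 was -0.23 ± 0.76 (SD, n = 4), and 0.14 without replicate 4. GID8 and VID30 were thus on opposite sides of 0 on 4 of the 5 arrays. On replicates 3 and 5, however, GID8 lay close to 0, and its 2 spots on replicate 3 were at -0.11 and 0.15.

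The RING-type genes varied least among the members. RMD5 had log2 ratios of -0.05, 0.36, 0.55, -0.10 and 0.41 on replicates 1 to 5, with a mean of 0.31 ± 0.28 over the last 4 (SD, n = 4). FYV10 had -0.08, 0.21, -0.07, 0.62 and 0.26, with a mean of 0.26 ± 0.28. Neither gene was more than 0.62 from an array median on any array, and their means differed by less than either SD. The mean of FYV10 was 0.14 without replicate 4. Across all genes the SD over these arrays had a median of 0.77.

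The conjugating enzyme gene UBC8 had log2 ratios of 0.40, 0.47, 0.49, -1.23 and -1.05 on replicates 1 to 5. Replicates 1 to 3 lay close together above 0, and replicates 4 and 5 close together below it. The mean over replicates 2 to 5 was -0.33 ± 0.94 (SD, n = 4), within the spread between arrays, and -0.03 without replicate 4 or -0.09 without replicate 5. On replicates 2, 4 and 5 both spots of UBC8 held identical deposited values, so its 2 spots were separate readings on replicate 3 alone of these arrays.

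Of the genes for substrate recognition, VID24 had log2 ratios of -0.60, -0.27, 0.23, 0.41 and 0.73 on replicates 1 to 5. The mean of VID24 over replicates 2 to 5 was 0.27 ± 0.42 (SD, n = 4), with arrays on either side of 0, and 0.12 without replicate 5. VID28 had -1.23, 0.54, 0.88, -0.02 and -2.16 on the same arrays. It was the lowest member on replicates 1 and 5, where it lay below VID30, and the next highest member after GID7 on replicates 2 and 3. Its mean of -0.19 ± 1.36 became 0.47 without replicate 5.

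GID7 had log2 ratios of -0.10, 0.65, 1.26, 0.28 and 0.98 on replicates 1 to 5. It was the highest member on replicates 2, 3 and 5, and its mean over replicates 2 to 5 was 0.79 ± 0.43 (SD, n = 4), 1.73-fold above the array median. GID7 was the 1 member above 0 on all 4 of these arrays, as were 7.11% of all genes. VID30 was the 1 member below 0 on all 4, as were 7.17% of all genes, and the 1 member below 0 on all 5, as were 3.29%. With the sign of replicate 2 turned neither call held, and VID24 was the 1 member above 0 on all 4 arrays, as were 7.28% of all genes. Since the complex was taken up for the ratios of VID30, nothing is read from these counts.

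**Figure D1:**
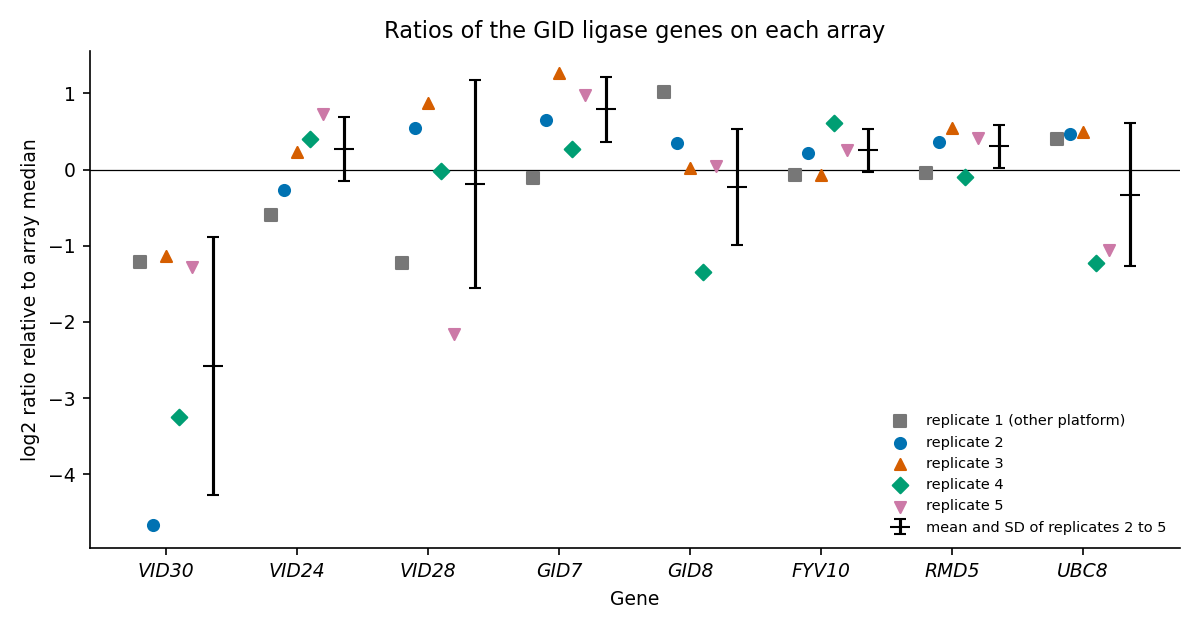
The plot gives, for each of the 8 GID ligase genes, the log2 ratio relative to the array median on every array (symbols) and the mean with SD of replicates 2 to 5 (black). VID30 lies below 0 on all 5 arrays, from -4.67 to -1.13, while each of the other genes except GID7 has values on either side of 0 among replicates 2 to 5.

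The order of the members changed from array to array. On replicate 2 VID30 was 4.40 log2 units below the next member, VID24, and the other 7 genes lay between -0.27 and 0.65. The gap to the next member was 1.06 on replicate 3, where that was FYV10, and 1.90 on replicate 4, where it was GID8. On replicates 1 and 5 there was no such gap, because VID28 lay 0.02 and 0.88 below VID30. In the order of means, VID30 was followed by UBC8, GID8 and VID28, at -0.33, -0.23 and -0.19, which do not differ beyond their SDs. The next members FYV10, VID24 and RMD5, at 0.26, 0.27 and 0.31, do not differ beyond theirs either. GID7 was the highest by 0.48 units, near the size of its SD over arrays. This order rests on replicate 2 as deposited: with its sign turned UBC8 was at -0.57, VID28 at -0.46 and GID8 at -0.41, all below VID30 at -0.25.

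Before centring, and with replicate 2 as deposited, the ratios of VID30 were less variable than those of the other members. The array medians, on the log2 scale, were 0.30, 1.97, -2.81, -1.44 and -1.60 for replicates 1 to 5. The deposited log2 ratio of VID30 was -0.91, -2.70, -3.94, -4.69 and -2.88 on the same arrays. It was below 0 on each array, also on replicate 2, whose median was far above 0. Of all genes 11.4% had a deposited ratio below 0 on replicate 2, and VID30 was the 1 member among them. The deposited values hold the same ratios for which VID30 was taken up, so nothing is read from this share or from those of the deposited ratios below.

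Over replicates 2 to 5 the SD of the deposited ratio was 0.94 for VID30 and ran from 1.77 for VID24 to 2.64 for VID28 among the other members. Of all genes 3.95% had a smaller SD of the deposited ratio than VID30. With replicate 2 turned the SD of VID30 was 3.35, the largest of the 8, and 99.5% of all genes had a smaller one. After centring VID30 had the widest spread of the 8. Without centring all 8 members had a mean below 0, because the array medians of replicates 2 to 5 averaged -0.97. The deposited ratio was below 0 on all 5 arrays for 3.74% of all genes and for VID30 alone among the members. With replicate 2 turned that share was 30.5%, and the members were VID24 and VID28 in place of VID30.

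**Figure D2:**
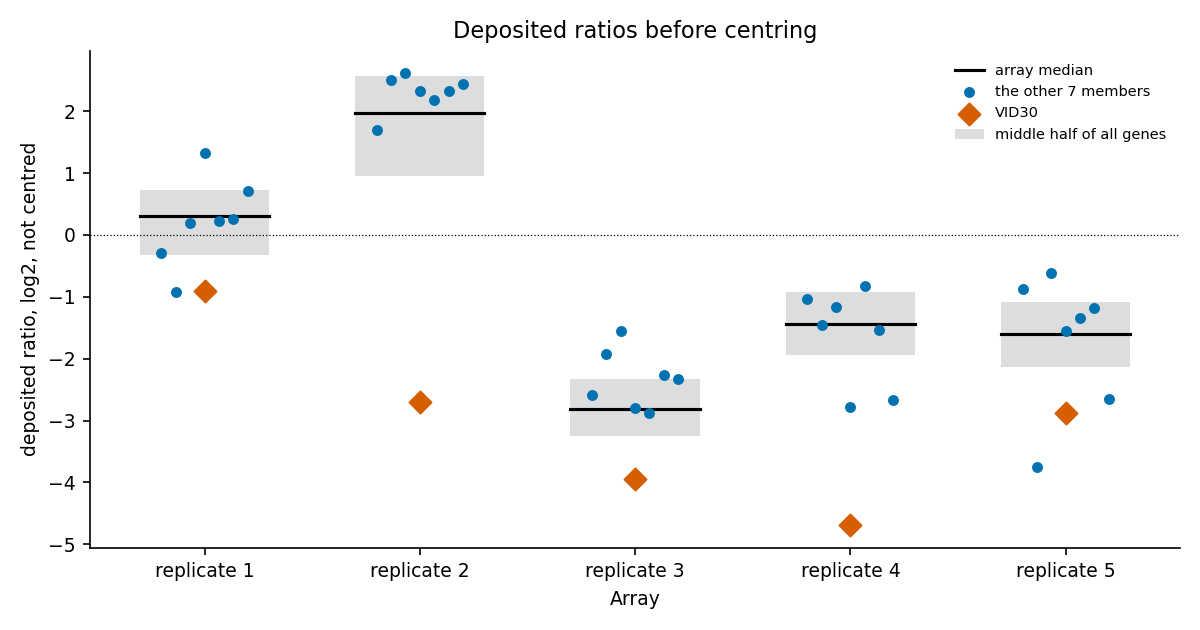
The plot shows deposited ratios on the log2 scale before centring, by array, with the array median (line), the interquartile range of all genes (grey), VID30 (diamond) and the other 7 members (points). The median of replicate 2 lies at 1.97 and those of replicates 3 to 5 between -2.81 and -1.44, while VID30 stays below 0 on every array.

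Each member had 2 adjacent spots on the platform of replicates 2 to 5, and the spots of VID30 repeated each other. The first spot was at -4.78, -1.19, -3.12 and -1.28 on replicates 2 to 5, and the second at -4.56, -1.07, -3.38 and -1.28. The largest difference between them was 0.26. The median difference between the 2 spots of a gene was 0.18 to 0.32 on these arrays. On replicate 1 VID30 also had 2 spots, at -0.98 and -1.44, and the other members had 1 each. The largest difference between spots of a member was 0.77, for VID28 on replicate 4, where its spots were at 0.37 and -0.40 on either side of the array median.

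The surroundings of the VID30 spots did not share its low values on replicates 2 and 4. The spots lie in columns 1 and 2 of row 7 in block 28, at a block edge, and 31 named spots of other genes lie within 3 rows and 3 columns. On replicate 2 these neighbours ran from -1.74 to 1.87, with none below VID30, and on replicate 4 from -1.03 to 0.40, again with none below it. On replicates 3 and 5, 2 of the 31 neighbours were lower than VID30. With the local median of the neighbours removed, VID30 was at -5.75, -1.28, -2.85 and -1.05 on replicates 2 to 5, with a mean of -2.73 ± 2.16 (SD, n = 4).

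For some other members the surroundings moved with the gene. The spots of UBC8 lie at the edge of block 7, and its neighbours had a local median of -1.03 on replicate 4 and -0.64 on replicate 5, the arrays on which UBC8 was low. With the local median removed the mean of UBC8 was -0.02 ± 0.42 (SD, n = 4), and that of GID7 was 0.45 ± 0.63, with 2 arrays below the local median. The means of the RING-type genes were then 0.02 ± 0.31 for FYV10 and 0.10 ± 0.14 for RMD5, and that of VID28 was -0.57 ± 1.21. VID28 on replicate 5 stood apart from its neighbours, 2.37 units below their median, and GID8 on replicate 4 was 1.19 units below its own. The part of array position in these ratios was not tested beyond this.

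Near the edges of a block, within 3 rows or columns of the border, directly adjacent spots of different genes often held the same deposited value. Of all named spots 22.1%, 5.74%, 11.1% and 29.6% held such a value on replicates 2 to 5. For members such values were present in 11 of 32 combinations of gene and array, counted if either spot of the gene held one. They affected VID24 and RMD5 on 3 arrays each, GID7 and FYV10 on 2, UBC8 on 1, and VID30, VID28 and GID8 on none. With these values left out the mean of each member moved by less than its SD over arrays, and VID24 moved most, to 0.53. The low ratios of VID30 on replicates 2 and 4, of VID28 on replicate 5 and of GID8 on replicate 4 did not come from such values. Sharing was looked for only between directly adjacent spots of a block.

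**Figure D3:**
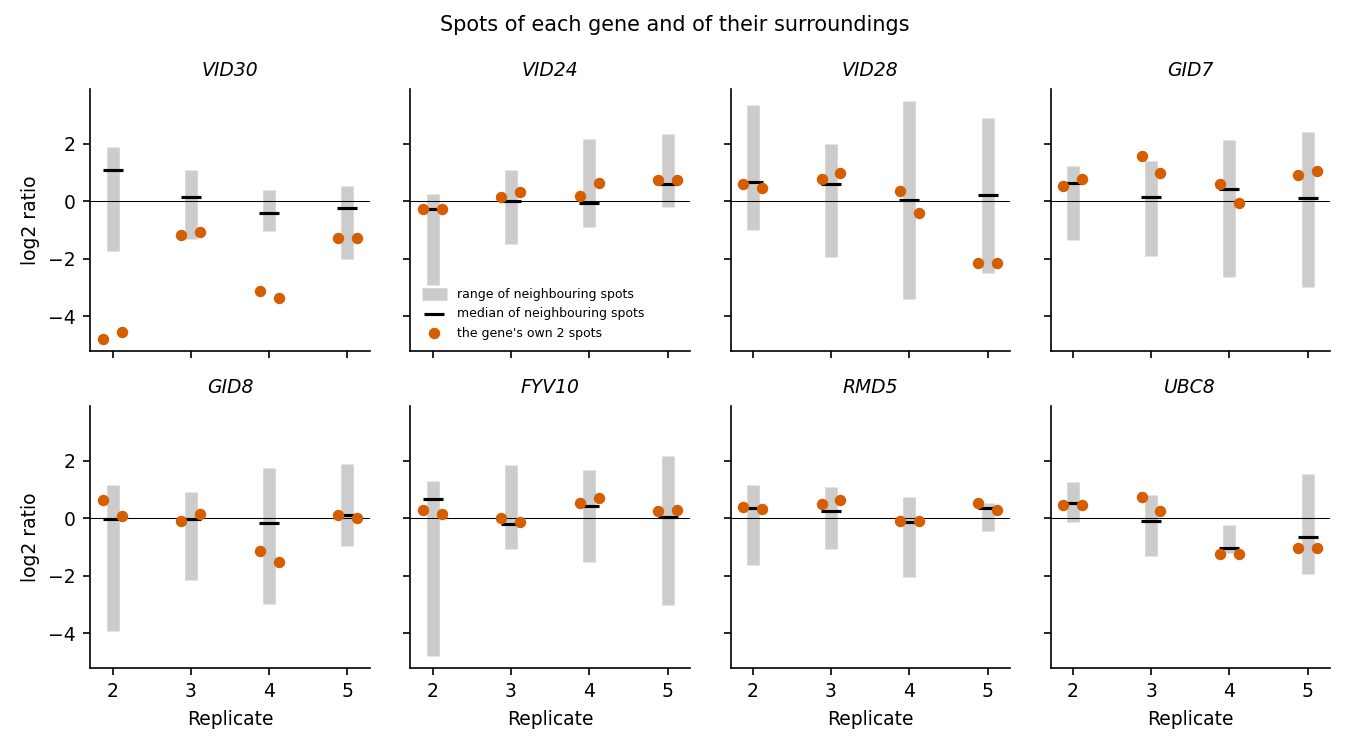
Each panel gives 1 gene, with its own 2 spots (points) on replicates 2 to 5 beside the range (grey bar) and median (line) of named spots of other genes within 3 rows and columns, all as log2 ratio relative to the array median. VID30 lies below all of its neighbours on replicates 2 and 4, and UBC8 and its neighbours are both low on replicates 4 and 5.

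The members lie on different chromosomes, except VID28 and FYV10, both on chromosome IX. RefSeq assembly R64 gives VID30 on VII, VID24 on II, GID7 on III, RMD5 on IV, UBC8 on V and GID8 on XIII. The 16 nearest measured genes on either side of the members had means from -1.22 to 0.64, with a median of -0.11, 9 below 0 and 7 above. The neighbours of VID30 on chromosome VII, chosen for their position, were SHE10 and MTC3, with means of 0.03 and 0.06. Gene length ran from 780 bases for UBC8 to 2877 for VID30, and VID28, of 2766 bases, was nearly as long as VID30.

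With replicate 2 as deposited, no GID substrate or accessory gene had a mean as low as that of VID30. FBP1, the fructose-1,6-bisphosphatase gene and classical substrate of the ligase, had log2 ratios of 0.18, 0.34, 0.08, 0.47 and 1.05 on replicates 1 to 5. Its mean over replicates 2 to 5 was 0.48 ± 0.41 (SD, n = 4), and no array was below 0. The mean was 0.30 without replicate 5. PCK1, the gene of phosphoenolpyruvate carboxykinase, had a mean of 0.41 ± 0.70, which was 0.09 without replicate 4.

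MDH2, the cytosolic malate dehydrogenase gene, was at 0.15 ± 0.64 and ICL1, the isocitrate lyase gene, at 0.18 ± 1.46 (SD, n = 4). Each had 1 of these 4 arrays below 0. ICL1 had the widest range of the 4, from -1.48 on replicate 5 to 2.08 on replicate 4, and its mean was -0.45 without replicate 4. On replicate 5 ICL1 lay below VID30, which was at -1.28 there. On replicate 1 ICL1 was at -1.14, beside VID30 at -1.21. The mean of MDH2 was -0.01 without replicate 5. The median of the 4 means was 0.30, beside -0.02 for all genes. With the local median removed it was 0.18, and on replicate 1 the median of the 4 ratios was 0.12.

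The 5 accessory genes had means from -0.19 to 0.34 with a median of 0.14, and 2 of them were below 0. GID11, an alternative substrate receptor gene, was at 0.34 ± 0.67 (SD, n = 4) and GID10, the other alternative receptor gene, at -0.10 ± 0.66. GID12, which encodes a regulator of the ligase, was at 0.17 ± 0.36. UBP14, the deubiquitinase gene also named GID6, was at 0.14 ± 0.69, and at 1.12 on the 1 array left when shared values were dropped. MOH1, a Yippee family gene, was at -0.19 ± 0.60. Each of these means was smaller than its SD over arrays. Without replicate 4 GID10 was at 0.13, UBP14 at -0.19 and MOH1 at -0.01, and without replicate 5 GID12 was at 0.02.

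Other genes of growth on non-fermentable carbon had 2 of 10 means below 0 and a median of the means of 0.09. Single ratios among them ran from -2.71 on replicate 2 to 2.19 on replicate 5, so a mean near 0 can average values far from 0. The citrate synthase gene CIT2 was at 0.48 ± 0.28 (SD, n = 4), the malate synthase gene MLS1 at 0.35 ± 0.49, the transcription factor gene SIP4 at 0.34 ± 0.78 and the activator gene ADR1 at -0.21 ± 0.54. CIT2 was above 0 on all 4 arrays and at -0.24 on replicate 1, and its mean was 0.20 with the local median removed. Without replicate 2 MLS1 was at 0.15 and SIP4 at 0.02, and without replicate 4 ADR1 was at 0.04. The 7 vacuole import and degradation genes, which act in a vesicle route of fructose bisphosphatase breakdown, had a median of 0.07 and 3 means below 0. Among them the cyclophilin gene CPR1 was at -0.92 ± 1.45, the TORC1 subunit gene TCO89 at -0.85 ± 1.12, and the conjugating enzyme gene UBC1, a member of the next list too, at 0.66 ± 0.44. Without replicate 2 CPR1 was at -0.29 and TCO89 at -0.44. The chaperone gene SSA2 was at -0.51 ± 3.65, from -3.23 on replicate 4 to 4.80 on replicate 2. Its mean was -2.28 without replicate 2, below that of VID30 without this array, and 0.40 without replicate 4, and near-identical copies of it can bind the same cDNA.

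Of the ubiquitin system outside the complex, 12 other conjugating enzyme genes had a median of -0.17 and 7 means below 0. CDC34, the conjugating enzyme gene of the SCF ligase, had log2 ratios of -1.01, -3.70, -1.37, -3.01 and 0.35 on replicates 1 to 5, with a mean of -1.93 ± 1.81 over the last 4 (SD, n = 4). It was low on replicates 2 and 4, the arrays on which VID30 was lowest, but not on replicate 5. Its mean was -0.08 with replicate 2 turned. RAD6, a conjugating enzyme gene of DNA repair and histone modification, was at -4.70 on replicate 2 and at -0.32 on replicate 4, with a mean of -1.54 ± 2.18 that became -0.49 without replicate 2.

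UBC9, the SUMO-conjugating enzyme gene, was at 0.73 ± 0.61, which became 0.14 after removal of the local median, and UBC7, of endoplasmic reticulum degradation, at -0.70 ± 0.97 (SD, n = 4), or -0.04 in that setting. The 12 genes ranged over 2.66 log2 units of mean, and UBC8 lay within that range.

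The other multi-subunit ligases had medians near 0 as well. The 15 genes of the anaphase-promoting complex had 9 means below 0 and a median of -0.15, and DOC1 was lowest at -1.03 ± 1.99 (SD, n = 4). That median was 0.13 without replicate 2, and the mean of DOC1 was -0.07 without replicate 5. APC11, the RING subunit gene, was at -1.03 ± 1.30, at -0.53 without replicate 2 and at -0.30 with the local median removed.

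The 13 SCF genes had 9 means below 0 and a median of -0.16. Their extremes were the F-box genes DIA2 at -1.05 ± 1.47 and HRT3 at 0.64 ± 1.62 (SD, n = 4). HRT3 was at -0.14 without replicate 2, and DIA2 at -0.60 without replicate 5. Of the 33 measured proteasome genes 14 had a mean below 0, with a median of 0.12. The largest deviations there were RPN12 at 1.36 ± 2.07 and PRE9 at -1.19 ± 1.38, and without replicate 5 these were at 0.57 and -0.59.

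With replicate 2 as deposited none of these lists held a gene with a mean as low as VID30, but SSA2 was lower without that array. Turning replicate 2 raised the mean of VID30 to -0.25, and genes of several lists then lay below it. Among these were SSA2 at -2.91, DIA2 at -1.42, DOC1 at -0.98 and HRT3 at -0.86. Other list genes, such as CDC34 at -0.08, lay above it. On replicate 1, where CDC34 was at -1.01, the medians of the lists ran from -0.56 for the anaphase-promoting complex to 0.16 for the vacuole import genes, and that of the 8 members was -0.09. The lists were chosen with earlier results of these data known and are not tested. Of the members of these lists 0 passed limma's adjusted threshold in either direction, as did 0 of all 5539 genes.

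**Figure D4:**
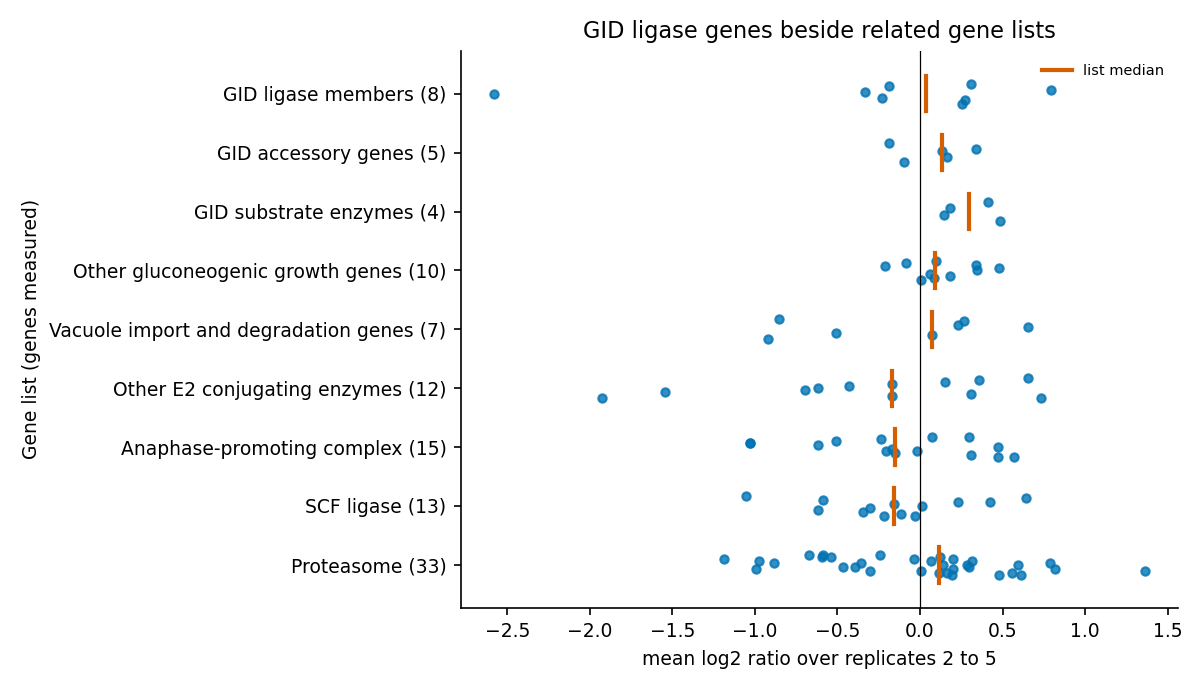
Points are mean log2 ratios over replicates 2 to 5 of single genes, by list, with the number of genes measured in brackets, and orange bars are list medians. VID30 is the point at -2.58 in the top row, below CDC34 at -1.93, the lowest gene of any other list with replicate 2 as deposited, and list medians lie between -0.17 and 0.30.

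The genes most like VID30 were sought by the root mean square (RMS) difference of their log2 ratios over replicates 2 to 5, among 5531 genes outside the complex. IFH1, which encodes a coactivator of ribosomal protein genes, was the closest, at an RMS difference of 0.15. Its log2 ratios were -4.57, -1.31, -3.31 and -1.06 on replicates 2 to 5. The search used these same arrays, so low values on the arrays where VID30 was low follow from it. The 2 spots of VID30 itself had an RMS difference of 0.18 over these arrays. That value compares single spots, while the 0.15 compares means over spots and is the smallest among the 5531 genes. The 2 values are therefore not like measures.

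TMA19, a gene for a ribosome-associated protein, followed at 0.28, and VPS41, a vacuolar tethering subunit gene, at 0.41. TMA19 was at -4.24 on replicate 2 and at -3.42 on replicate 4, its lowest arrays, which again follows from the search. For YHR131C the difference was 0.58, and for YBL005W-B, a reading frame of a Ty element, 0.65. In all 13 genes lay within an RMS difference of 1 from VID30. Among the 50 genes of lowest mean, the RMS difference to the nearest other gene had a median of 0.34 and a smallest value of 0.14.

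The likeness to VID30 did not extend to the other platform for the 3 nearest genes. On replicate 1 IFH1 was at 0.43, TMA19 at 0.45 and VPS41 at 0.42, above 0, where VID30 was at -1.21. YHR131C was at -1.19 and YBL005W-B at -0.54 there. The spots of IFH1 lie in block 25, those of TMA19 in block 16 and those of YHR131C in block 20. Those of VPS41 and YBL005W-B lie in block 21. None lie in the block of VID30, and none held a value shared with a directly adjacent spot of another gene. With the local median removed their means ran from -1.22 for YBL005W-B to -2.42 for YHR131C.

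The other members were not close to VID30 by this measure. GID8 was nearest, at an RMS difference of 2.83, and 34.2% of genes outside the complex were closer to VID30 than GID8 was. For GID7, the farthest member at 3.59, that share was 88.7%. These distances are descriptions over 4 arrays and carry no test.

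**Figure D5:**
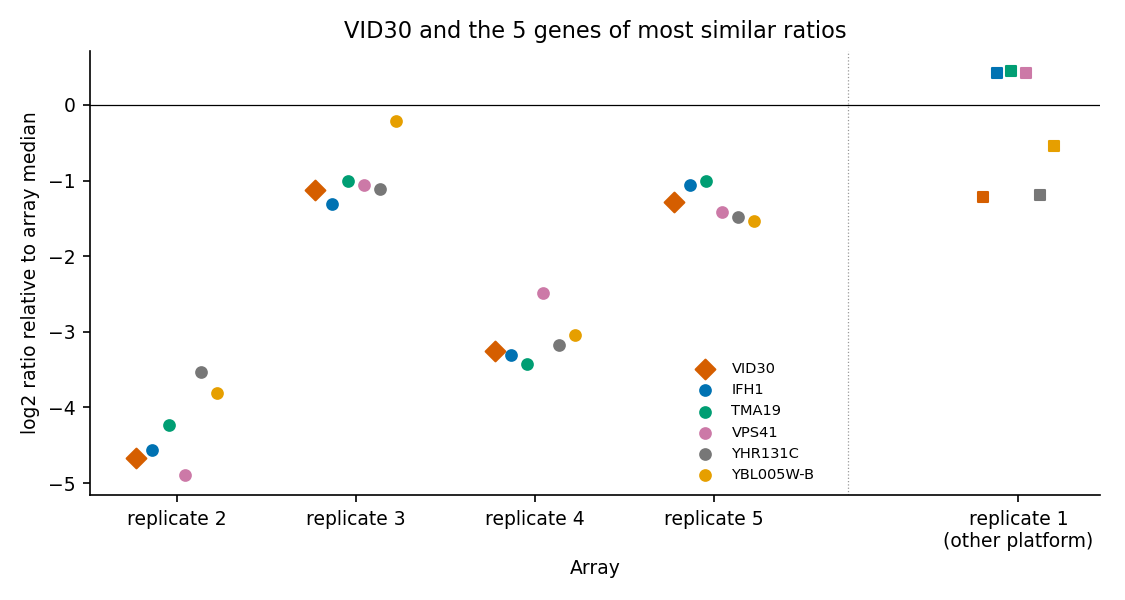
Log2 ratios relative to the array median are shown for VID30 (diamonds) and the 5 genes of smallest RMS difference from it over replicates 2 to 5, with replicate 1 (squares) at the right. The genes lie between -4.89 and -3.53 on replicate 2, and on replicate 1 IFH1, TMA19 and VPS41 are above 0 while VID30 is at -1.21.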

How the data were processed

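The deposited values are per-spot ratios on a log10 scale, which was worked out from the values: among 2000 spots sampled from each array, raising 10 to the value gave a quotient of whole numbers not above 3000 for 1.50% to 18.4%, against at most 0.40% with base 2 or e (within 6e-10 log units). For scanner, background correction, normalization and numerator, nothing is stated in the sources used here. The log2 values had the median of an array's named spots subtracted and were averaged per gene. Names came from the platform annotation and RefSeq assembly R64, which matched 5534 of 5539 genes. 1 row without a numeric ID was left out and 2 IDs on 2 rows were merged. On the shared platform 11138 of 12800 spots had a gene. The layout of 32 blocks of 20 by 20 was inferred and then used as a setting. Within such blocks, among distances of 2 to 44 spots, correlation between spots of different genes was highest at 20. That bears on the row length, but it takes the block size as given.

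Means and SDs cover replicates 2 to 5, and replicate 1 stands beside them. The background fit was limma 3.58.1 in R 4.3.3 (lmFit, eBayes, Benjamini-Hochberg, at least 3 arrays). It was tried on the measured ratios shuffled among genes within each array, with known shifts added. Recovery was required only for the largest of these shifts. Tables were made with Python 3.11.15. Its p-values measure only the spread between arrays, which may be technical. The members and lists were chosen with earlier results of these data known. Named are all members, accessory and substrate genes, at most 4 genes of largest absolute mean per other list, and the 5 genes nearest VID30. Alternatives changed the centring, scaling, position, shared values, sign of replicate 2, the arrays with a shared title code (replicates 3 and 5, averaged), platforms, spot summary and arrays used.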

Additional observations from a re-analysis of the deposited data

Results flagged for a closer look

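Of 55 results checked over replicates 2 to 5, 2 had 1 array far from the other 3, and chance alone flags about 1 in 20. GID11 was at -0.66 on replicate 5 and between 0.55 and 0.75 on replicates 2 to 4, so that its mean was 0.67 without that array. The median of the 10 other genes of gluconeogenic growth was 0.31 on replicate 5 and between 0.02 and 0.04 on replicates 2 to 4. VID30 and the other members were not among these results.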

How the results depend on the processing

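The direction of replicate 2 matters most for VID30: with its sign turned the mean was -0.25. IFH1 was then at -0.28, TMA19 at -0.30, VPS41 at -0.02, CDC34 at -0.08 and RAD6 at 0.81. VID30 was then no longer the lowest member. Of 104 member values under the alternatives 7 moved by more than the spread between arrays and 7 changed sign. The number of members below 0 was 3 to 4 with an array left out, and 8 with no centring. Without centring the list medians were -0.94 (GID members), -0.84 (accessory), -0.67 (substrates), -0.88 (gluconeogenic growth), -0.90 (vacuole import), -1.14 (conjugating enzymes), -1.12 (anaphase-promoting complex), -1.13 (SCF) and -0.85 (proteasome), by construction. The anaphase-promoting complex was at -0.068 with mean centring, 0.010 with arrays scaled, 0.014 with the local median removed, 0.12 with replicate 2 turned, and -0.13 to 0.13 with an array left out. The gluconeogenic growth median was 0.24 with the local median removed. The causes were not tested. With an array left out, the median of the members ran from -0.08 to 0.19. Limma called 0 genes in every setting run, with 203 to 350 at an unadjusted p under 0.05. No paired analysis was possible because the arrays form 1 group. Signal over background could not be assessed from ratios.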
